A study of Mus musculus with 4 samples.

Results

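Trem2 and Fcer1g were the 2 genes described here, out of the 397 immune genes that were counted in single brain cells. They were chosen by name, with earlier results of these data known. Brain cells came from the right hemisphere of male mice aged 9 months, after removal of the cerebellum, dissociation in the cold and removal of myelin. All 4 mice carried the 5XFAD transgenes, human genes with familial Alzheimer's disease mutations under a neuronal promoter. The 5XFAD;Abi3-/- group had 2 mice without Abi3, from a strain in which the gene's locus was deleted in all cells, and the 5XFAD;Abi3+/+ group had 2 mice with both copies. The former are named KO1 and KO2 here and the latter WT1 and WT2. Each mouse gave 1 library, so mouse and library cannot be told apart. According to the study's methods, its experimental mice other than an excluded pair of females were heterozygous for a Trem2 coding variant of the SJL background, so all groups shared it and no mouse without it was compared. Abi3 was not among the 397 genes, so the genotype could not be checked in these reads. It rested on the labels, which name the control mice 5XFAD alone, and on the study, which gives these mice both copies of Abi3. The study also reports a check of the deletion by qPCR in brains of its mice.

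Trem2 encodes a surface receptor of microglia that binds lipids, apolipoproteins and amyloid. It has no signalling motif of its own and passes its signal through the adaptor DAP12 (Tyrobp), which carries an immunoreceptor tyrosine-based activation motif (ITAM). Fcer1g encodes the common gamma chain of Fc receptors, the ITAM adaptor through which Fc gamma receptors such as Fcgr3 and the high-affinity IgE receptor signal in myeloid cells. Both adaptors recruit the kinase Syk. In amyloid models, Trem2 is known as a receptor that microglia need in order to reach the full disease-associated (DAM) state, a later stage in which Cst7 is high, while Apoe is already induced at an earlier stage that does not need Trem2. Tyrobp and Syk were not among the genes counted. On GRCm38.p6, the RefSeq annotation of the mm10 build named in the submitters' processing notes, Trem2 lies on chromosome 17 from 48346401 to 48352276 and Fcer1g on chromosome 1 from 171229572 to 171234349. Neither overlaps another annotated gene.

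The tables held whole reads per gene and cell. Cells with 40 or more genes and a total below the upper limit of the study's methods were kept, and the deepest kept cell held 59271 reads. Those methods word the lower limit in unique reads, while genes with a read were counted here. This left 13820 of 21172 cells, with 2321 from KO1, 4499 from KO2, 3796 from WT1 and 3204 from WT2. Median reads per kept cell ran from 19647.5 to 24283. Between 6 and 18 kept barcodes were shared by any pair of libraries. Cells were clustered without Trem2 and Fcer1g, so that neither gene could form the groups in which it is described. Microglia held 12609 cells in 10 clusters, and in every mouse each of the 9 microglia markers had a read in most of them, the lowest share being 67.2% for Lag3 in WT2. A further 323 cells were T cells, 174 macrophages and monocytes, 114 neutrophils and 53 B cells. A cluster of 313 cells expressed all microglia markers but was led by Cd74, H2-Ab1 and H2-Aa, and was kept apart. A cluster of 234 cells led by F5, Ncam1 and Vegfa held 6 ependymal or astrocyte markers among its 10 leading genes.

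Throughout, a level is given in RPM, a gene's share of all panel reads of a group of cells scaled so that the genes of every group sum to the same total, with Apoe and Cst7 left out of the total. Reads are not molecules and each primer has its own efficiency, so levels of Trem2 and Fcer1g within a cell type cannot be compared as transcript abundance, and their ratio is only followed between groups of cells. Intervals on shares are exact 95% binomial intervals and cover counting error only.

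Trem2 was read in nearly every microglial cell and in few lymphocytes. A read was found in 99.9% of the microglia of KO1, 99.8% of KO2, 99.9% of WT1 and 99.9% of WT2, or 12595 of 12609 cells. Its level was 50947 RPM in KO1, 48009 in KO2, 53666 in WT1 and 54438 in WT2. By reads in microglia Trem2 ranked 4, 4, 4 and 3 among the genes of the panel in these mice. The median microglial cell held 1188, 874, 1001 and 1133 Trem2 reads in these mice, and the percentiles 10 and 90 over cells were 388 and 2124 in KO2, which had the lowest median. The cluster led by MHC class II genes had Trem2 reads in 313 of 313 cells, at levels of 45325, 44762, 51711 and 51626 RPM, which is 89.0% to 96.4% of the microglial level of the same mouse.

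Fcer1g was read in 99.9%, 99.5%, 99.1% and 99.6% of microglia in the same order of mice, or 12544 of 12609 cells. Its level was 20487 RPM in KO1, 19030 in KO2, 18675 in WT1 and 22077 in WT2, so the range of each genotype overlapped the other. The median microglial cell held 491, 372, 357 and 477.5 Fcer1g reads. Reads of both genes were present in 12538 of the 12609 microglia. In the cluster led by MHC class II genes, Fcer1g was read in 313 of 313 cells and its level was 94.3% to 112% of that of microglia.

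Macrophages and monocytes carried Fcer1g at nearly the microglial level and Trem2 at a small part of it. Fcer1g was read in 174 of 174 of these cells, and its level of 13846, 17697, 18678 and 19630 RPM was 87.4% ± 13.97 (SD, n = 4 mice) of that of the microglia of the same mouse. Trem2 was read in 48.3%, 50.9%, 40.5% and 66.7% of them, and its level of 3942, 2992, 2497 and 6676 RPM was 7.72% ± 3.28 (SD, n = 4 mice) of the microglial level. A macrophage with Trem2 reads held a median of 108 to 228 of them, against 874 to 1189 in a microglial cell with reads. Macrophages were the deeper cells, with median totals of 32035 to 40444 reads per cell against 19702 to 24162 in microglia.

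Genes of the microglia marker list were also read in the macrophage cluster, and some of them are not particular to microglia, Selplg being read in 89.5% of T cells. Of the 92 macrophages with a Trem2 read, 66 also had a read of the complement gene C1qa, and 4 or 5 of the 9 microglia markers were read in most of the cells, depending on the mouse. The summed level of the 9 markers was 25285 to 57910 RPM, against 152773 to 247927 in microglia, and Cx3cr1 and Lag3 were read in 31.0% and 6.90% of the macrophages. Per mouse there were 0.27, 0.48, 0.29 and 0.27 Trem2 reads for each C1qa read in macrophages, and 0.66, 0.82, 0.77 and 0.67 in microglia. The ratio was thus lower in macrophages than in microglia in each of the 4 mice, and the part of microglial RNA in the macrophage values was not tested.

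Neutrophils carried Fcer1g and next to no Trem2. Fcer1g was read in 114 of 114 neutrophils, at 16020, 9781, 10783 and 10965 RPM, or 59.2% ± 13.1 (SD, n = 4 mice) of the microglial level. The highest of these values came from the 5 neutrophils of KO1, and most neutrophils, 84 of 114, came from KO2. Trem2 was read in 0 of 5, 11 of 84, 1 of 6 and 0 of 19 neutrophils, or 10.5% of all (95% interval 5.56% to 17.7%). With 3 counts of the total taken as the limit that a count of 0 allows, which is not a binomial interval, up to 15.8% of the 19 neutrophils of WT2 and up to 60% of the 5 of KO1 could have a read. Of the 12 neutrophils with a Trem2 read, 9 also had a C1qa read.

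T cells and B cells, which should lack Trem2, were taken as a reference for the other cell types. The source of their Trem2 reads was not tested. Trem2 was read in 5 of 97, 5 of 72, 7 of 73 and 8 of 81 T cells, or 7.74% (95% interval 5.07% to 11.2%), at a median of 16781 reads per cell. The interval of the neutrophil share, at a median of 28004.5 reads per cell, overlapped this one. Per mouse the shares ran from 0% to 16.7% in neutrophils and from 5.15% to 9.88% in T cells, so the ranges overlapped, and 11 of the 12 neutrophils with a read came from KO2. The difference between these cell types was not tested. The macrophage share of 52.9% (95% interval 45.2% to 60.5%) lay above the interval of T cells, and its values per mouse, 40.5% to 66.7%, did not overlap theirs. The T cells of KO2 had the highest Trem2 level, 4062 RPM against 710 to 901 in the other mice. It came from 5 cells, and 5 of these 5 cells also had C1qa reads, against 2 of 5 in KO1, 1 of 7 in WT1 and 3 of 8 in WT2. Over all mice, 11 of the 25 T cells with a Trem2 read had a C1qa read. Fcer1g was read in 10 of 97, 9 of 72, 2 of 73 and 10 of 81 T cells, or 9.60% (95% interval 6.61% to 13.3%), at 1.93% to 13.2% of the microglial level. In B cells Trem2 was read in 4 of 53 cells and Fcer1g in 1 of 53.

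The cluster led by F5 and Ncam1 had Trem2 reads in 119 of 234 cells and Fcer1g reads in 113, and 103 cells had both. Of its 119 cells with Trem2 reads, 107 also had C1qa reads. Its 0.65 to 1.14 Trem2 reads for each C1qa read spanned the ratio of microglia. The summed level of the 9 microglia markers was 55887 to 95796 RPM there. The part of microglial RNA or of cells captured together in this cluster was not tested.

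In order of mean level over mice, Trem2 ran from microglia through the cluster led by MHC class II genes, the F5- and Ncam1-led cluster and macrophages to T cells, B cells and neutrophils. The values of microglia and of the MHC class II-led cluster overlapped between mice, as did those of the last 4 groups with their next neighbour. For Fcer1g the order was the MHC class II-led cluster, microglia, macrophages, neutrophils, the F5- and Ncam1-led cluster, T cells and B cells. Its first 3 groups overlapped each other, neutrophils overlapped macrophages and the F5- and Ncam1-led cluster, and T cells and B cells, which overlapped each other, were lower than all of these. These orders are a description, since the cell types were formed from the same cells.

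**Figure D1:**
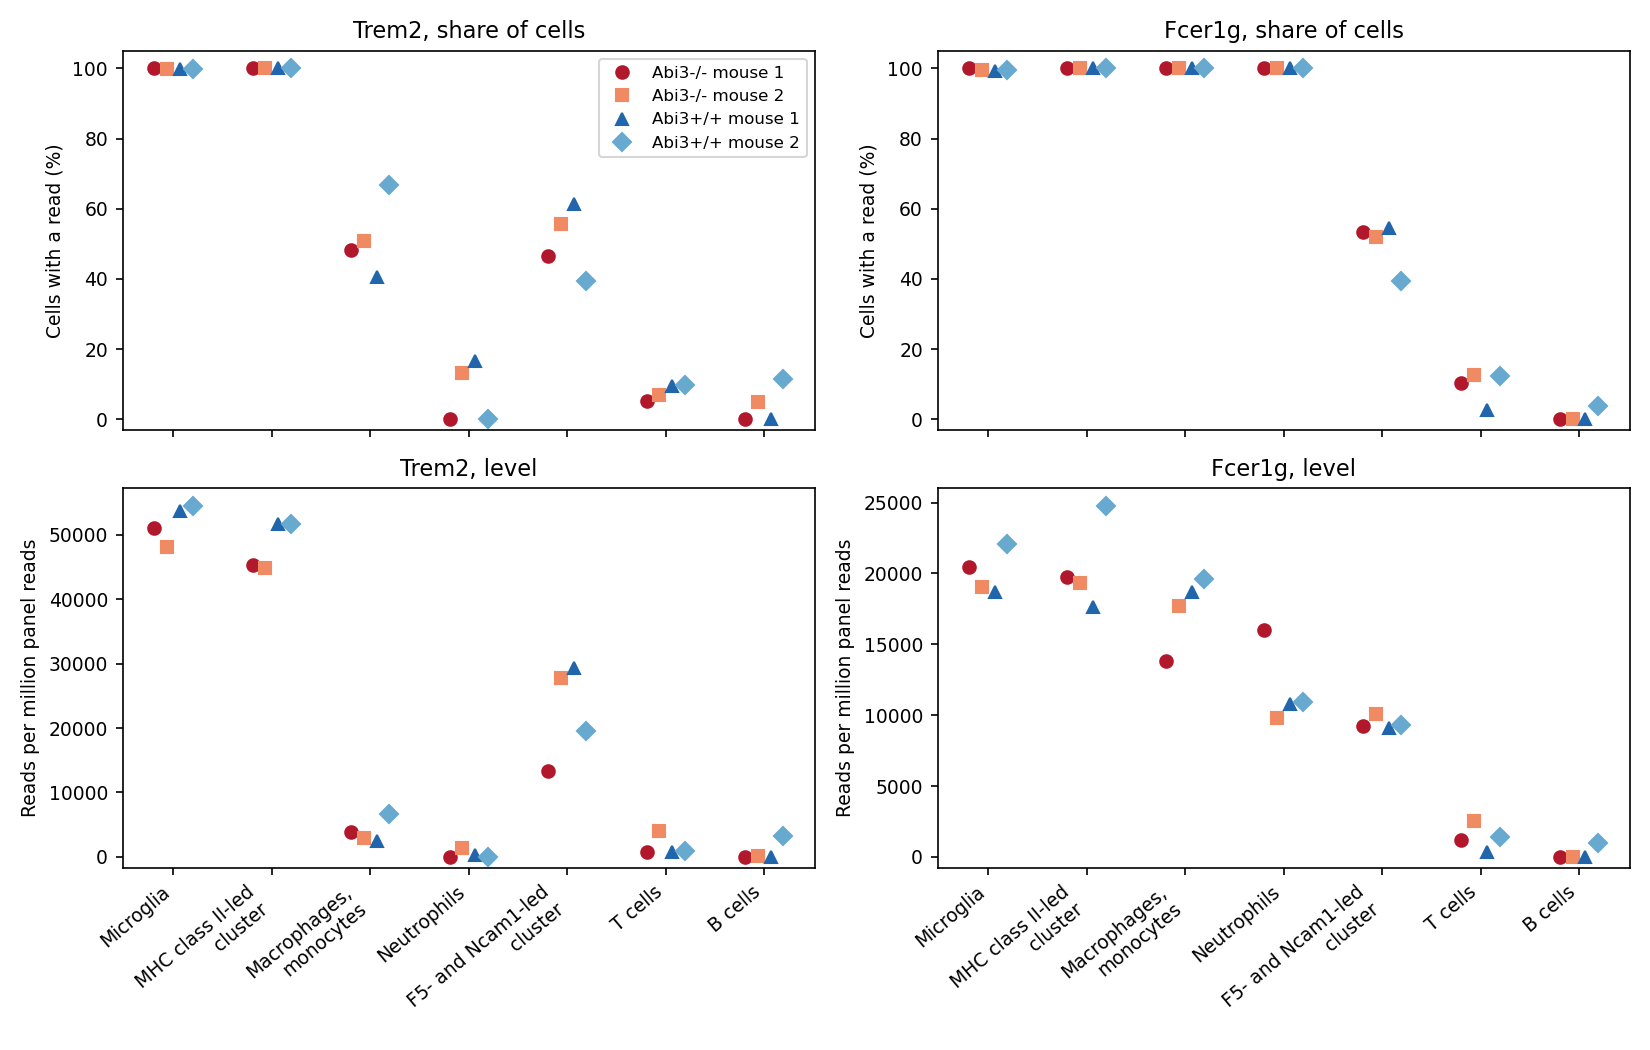
Share of cells with a read (top, percent) and level (bottom, RPM over the panel without Apoe and Cst7) of Trem2 and Fcer1g in 7 groups of cells; each point is 1 mouse. Fcer1g is read in all macrophages and neutrophils, while the Trem2 level of macrophages is 2497 to 6676 RPM against 48009 to 54438 in microglia.

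Microglia were next divided by their reads of Apoe and Cst7, a pair of DAM genes. Reads of both were found in 3159 microglia, of Apoe alone in 2602, of Cst7 alone in 1109 and of neither in 5739. Cells with both made up 31.7% of the microglia in KO1, 32.8% in KO2, 17.04% in WT1 and 19.3% in WT2. Trem2 was read in 99.7% to 100% of the cells of every class and mouse and Fcer1g in 99.0% to 100%, so any difference between classes was one of level.

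Trem2 was higher in microglia with reads of both genes than in microglia with neither in 4 of 4 mice. Its level was 55178 against 46552 RPM in KO1 and 53986 against 41924 in KO2. It was 61780 against 50958 in WT1 and 67645 against 48986 in WT2. The ranges of the 2 classes over the mice did not overlap. The share of all genes without overlap between these classes was not counted, so this cannot be called particular to Trem2. The log2 differences of these shares of the panel were 0.25, 0.36, 0.28 and 0.47, with a mean of 0.34 ± 0.10 (SD, n = 4 mice). Cells with Cst7 alone lay between, with a mean log2 difference from neither of 0.13 ± 0.06 and a higher level in 4 of 4 mice. Cells with Apoe alone differed least, with 0.04 ± 0.05 and a higher level in 3 of 4 mice.

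The share of the panel taken by Fcer1g moved less. Its level was 20112 against 20913 RPM in KO1, 19501 against 18851 in KO2, 19772 against 18265 in WT1 and 23350 against 21222 in WT2. The log2 differences between cells with both genes and cells with neither were -0.06, 0.05, 0.11 and 0.14, with a mean of 0.06 ± 0.09 (SD, n = 4 mice). The ranges of the 2 classes overlapped. Differences of the other classes from neither were 0.01 ± 0.06 for Apoe alone and 0.03 ± 0.07 for Cst7 alone.

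**Figure D2:**
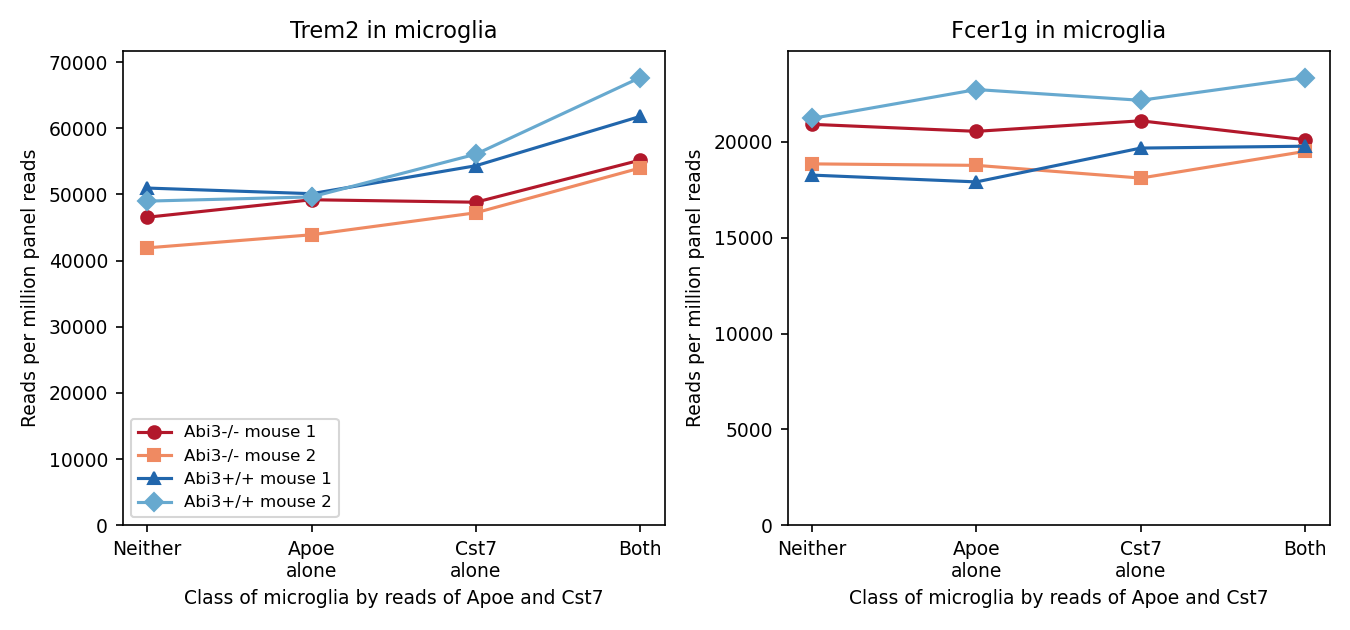
Level of Trem2 (left) and Fcer1g (right) in microglia by class, in RPM over the panel without Apoe and Cst7; each line joins the 4 classes of 1 mouse. The Trem2 lines end at 53986 to 67645 in cells with both genes, from 41924 to 50958 in cells with neither, and the Fcer1g lines stay between 17911 and 23350.

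Tested across all genes with edgeR's quasi-likelihood test, with the mouse as a block and TMM normalization, 136 of 300 genes (45.3%) differed between cells with both genes and cells with neither at an adjusted p under 0.05. Of these, 69 (23%) were higher and 67 (22.3%) lower. Trem2 was among the higher genes, with a log2 fold change of 0.86 ± 0.08 (SE; adjusted p = 2.04e-06), as was Fcer1g, with 0.59 ± 0.08 (SE; adjusted p = 3.81e-05). Among all 300 genes Trem2 ranked 88 and Fcer1g 102 from the highest fold change, so neither was among the genes that moved most.

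These fold changes depended on the scaling. TMM sets the sums so that most genes do not move, while a share of the panel moves with the most read genes. Without TMM, the median fold change of all genes shifted by -0.52 on the log2 scale, from -0.11 to -0.63, and 40 genes (13.3%) were called higher and 126 (42%) lower. Trem2 was still called higher, with a log2 fold change of 0.34 (adjusted p = 0.000106, edgeR), and Fcer1g was not, with 0.06 (adjusted p = 0.36, edgeR). Relative to the median gene, Trem2 was higher by 0.97 and Fcer1g by 0.70 under TMM, and by 0.97 and 0.69 without it. Ctsd, the lysosomal protease cathepsin D, moved with this difference, taking 28.6%, 39.98%, 36.3% and 33.9% of the panel reads of cells with both genes and 20.6%, 26.0%, 22.5% and 19.1% of those of cells with neither. With Ctsd taken out of the totals, without TMM and chosen after seeing the data, the log2 fold changes were 0.60 for Trem2 and 0.32 for Fcer1g, and both were called (adjusted p = 7.03e-06 and 0.000725, edgeR).

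The number of Trem2 reads for each Fcer1g read does not depend on the scaling. It rose from 2.23 in cells with neither to 2.74 in cells with both in KO1 and from 2.22 to 2.77 in KO2. In WT1 and WT2 it went from 2.79 to 3.12 and from 2.31 to 2.90. The mean log2 difference was 0.28 ± 0.08 (SD, n = 4 mice), in the same direction in 4 of 4 mice, with an exact two-sided sign-flip p of 0.125, which is the smallest that 4 mice allow. The same difference was 0.10 ± 0.10 for cells with Cst7 alone (exact p = 0.25) and 0.03 ± 0.08 for cells with Apoe alone (exact p = 0.625). Adjusted over these 3 comparisons the exact p-values were 0.375, 0.375 and 0.625.

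Cells with reads of both genes were also deeper, with medians of 27850 to 31908 reads per cell against 16961 to 20989 in cells with neither. With each cell thinned to 10000 reads, the classes kept as they were, the log2 fold changes under TMM were 0.78 for Trem2 and 0.55 for Fcer1g, and both were called (adjusted p = 3.29e-06 and 3.44e-05, edgeR).

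Other genes of the pathway and of the microglial states were followed in the same test, and all of the following counts and values are under TMM. Of 14 ITAM receptors, adaptors and signalling partners, 11 could be tested, of which 0 rose and 3 fell, beside 23% of all genes that rose and 22.3% that fell. Lyn, a Src family kinase, fell by 0.60 on the log2 scale, and Cd300a, an inhibitory receptor of myeloid cells, by 0.48. Fcer1a, Klrk1 and Cd247 had too few reads to be tested. Zap70, Trem1, Lat and Lck were read so rarely that their standard errors exceeded 1. The median log2 fold change of these 11 genes was 0.01, against -0.11 over all genes. Fcgr3, a ligand-binding Fc receptor that needs the gamma chain and was singled out after its value was seen, had a log2 fold change of 0.01 ± 0.06 (SE). Without TMM the counts were 0 higher and 7 lower, beside 13.3% and 42% of all genes, and Fcgr3 had a log2 fold change of -0.50, against a median of -0.63 over all genes.

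Of 9 inhibitory receptors and related genes, many of which carry the inhibitory counterpart of the ITAM (ITIM), 8 were tested, 5 rose and 2 fell, beside the same 23% and 22.3% of all genes. The 4 with the largest change were Lilrb4a, an inhibitory receptor of the leukocyte immunoglobulin-like family, with 5.03 ± 0.54 (log2, SE), Cd72 with 2.64 ± 0.27, Pdcd1 with 1.30 ± 0.24 and Cd22, a sialic acid-binding receptor, with 1.199 ± 0.21. Those that fell were Cd33, with a log2 fold change of -0.62, and Cd300a, which is in the ITAM list as well and is counted in both. Without TMM 4 were called higher and 3 lower, beside the 13.3% and 42% of all genes.

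All 11 genes of the DAM list rose, beside 23% of all genes, with a median log2 fold change of 2.67, and all 11 were called higher without TMM, beside 13.3% of all genes. Lilrb4a, Lgals3 (galectin-3), Spp1 (osteopontin) and the integrin Itgax changed most, with 5.03, 4.57, 4.40 and 3.15. The smallest change in the list was that of the tetraspanin Cd9, 0.94 ± 0.08 (SE), which lay next to that of Trem2. The list for homeostatic microglia mixed surface genes with the immediate early genes Jun, Egr1, Fosb and Junb, which are not markers of a resting state. Of its 9 genes 8 fell and 0 rose, beside 22.3% and 23% of all genes, with a median of -0.77. Without TMM 9 were called lower, beside 42% of all genes and a median over all genes of -0.63. Under TMM the immediate early genes Egr1, Junb and Jun were among those that fell, with -1.33, -0.90 and -0.88. Among the surface genes, Selplg, Cx3cr1 and Entpd1 fell, with -0.77, -0.72 and -0.50, and Adgre1 was not called (-0.27).

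**Figure D3:**
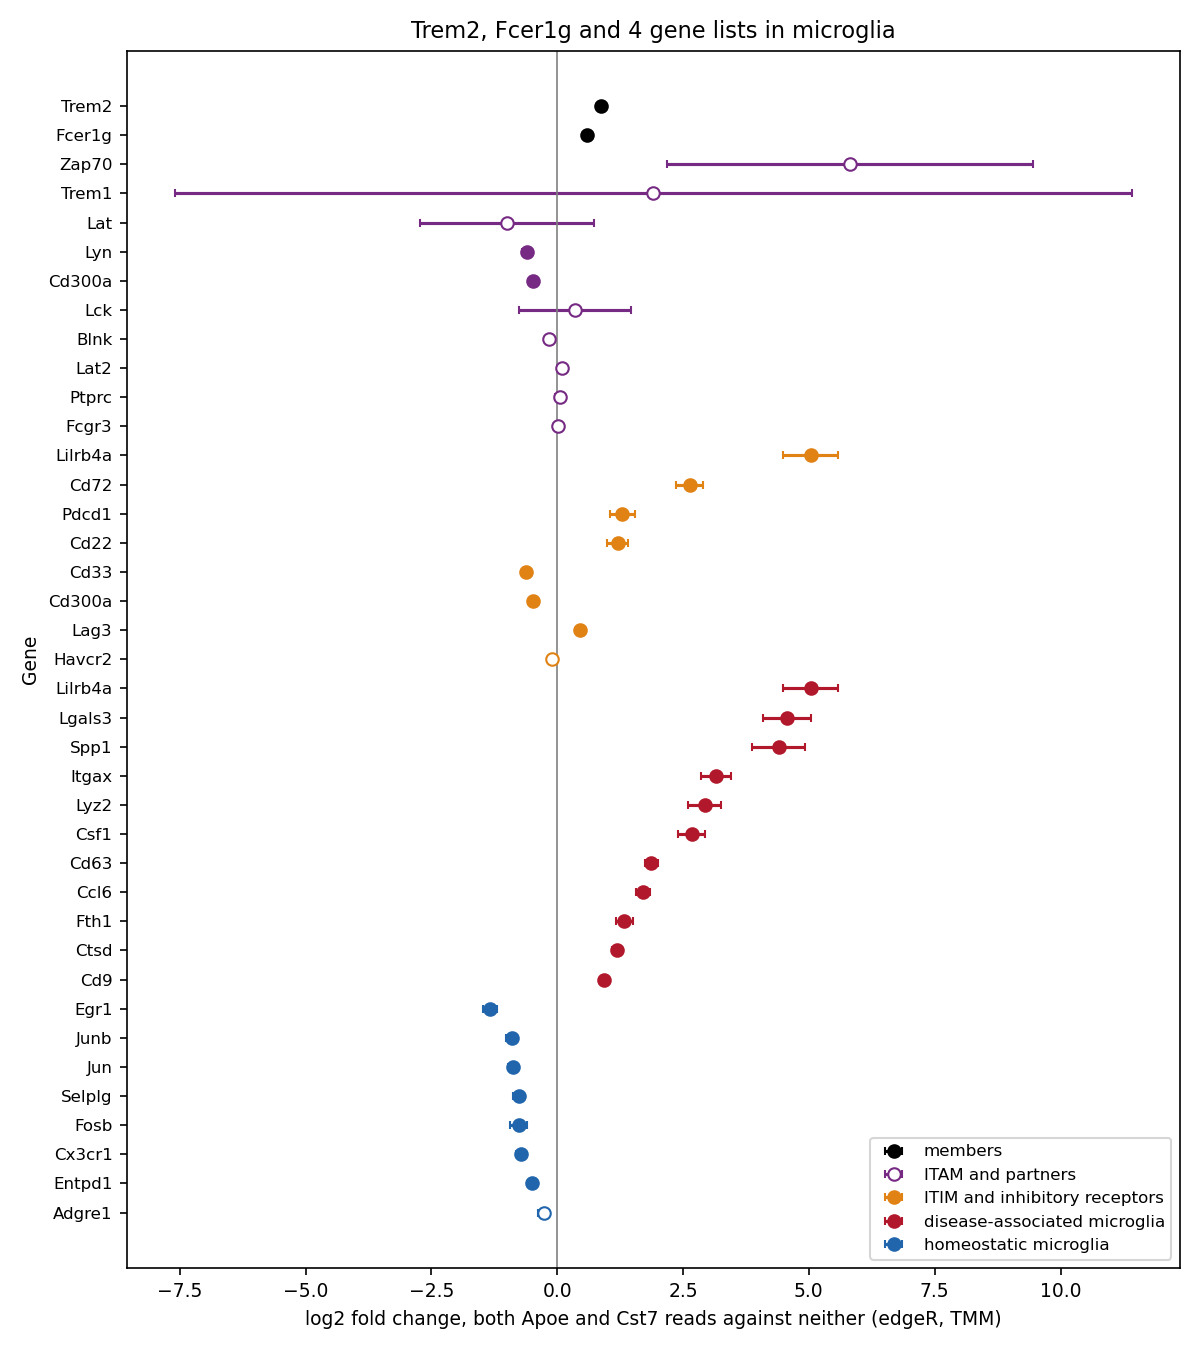
Log2 fold change between microglia with reads of both Apoe and Cst7 and microglia with reads of neither (edgeR with TMM, 4 mice), with the standard error as a bar; filled points passed an adjusted p of 0.05. Not every gene of the lists is drawn. Trem2 (0.86) and Fcer1g (0.59) lie below every gene of the DAM list, and Fcgr3, of the list of ITAM genes and partners, lies at 0.01.

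Trem2 levels also varied between microglial clusters. The cluster led by Cst7, Lilrb4a and Itgax had the highest Trem2 level of the 10 microglial clusters in each of the 4 mice, at 62708, 56516, 66672 and 73502 RPM. A cluster led by Lilrb4a, Csf1 and Ccl4 came next, with 56837, 54049, 61468 and 63085. The lowest level in each mouse was that of 101 cells led by the cell cycle genes Top2a, Ube2c and Mki67, with 34665, 35467, 38693 and 33517. These values rest on 8 cells of KO1, 50 of KO2, 21 of WT1 and 22 of WT2. Depending on the mouse, 85.7% to 100% of them had a Trem2 read and 85.7% to 100% an Fcer1g read. Fcer1g ran from 20612 to 25375 in the first of these clusters, from 18290 to 21982 in the second and from 13595 to 22251 in the Top2a-led cluster. Another cluster, of 167 cells, had the cell cycle genes Aurkb, Mcm2 and Mcm4 among its leading genes. Its mean Trem2 level was 86.8% of that of microglia, against 68.9% in the Top2a-led cluster, and its Fcer1g level ran from 17397 to 22494. The clusters were formed without both genes, and these values are a description.

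Across single microglia, Trem2 and Fcer1g were linked in reads per cell and hardly once depth was taken into account. Spearman's correlation between the reads of both genes was 0.50 over 1979 cells of KO1, 0.59 over 4143 of KO2, 0.52 over 3557 of WT1 and 0.51 over 2930 of WT2. The reads of each gene followed the cell's total of other reads, with a correlation from 0.70 to 0.76 for Trem2 and from 0.63 to 0.70 for Fcer1g. On log-normalized values Spearman's correlation between Trem2 and Fcer1g was -0.03, 0.05, 0.03 and 0.05, and Pearson's r was -0.05, 0.15, 0.10 and 0.10. In cells thinned to 10000 reads Spearman's correlation was -0.03, 0.03, 0.04 and 0.04. Where both genes were left out of the total by which a cell is scaled, it rose to 0.03, 0.11, 0.10 and 0.12. Within cells with both Apoe and Cst7 reads, the correlation of log-normalized values ran from -0.01 to 0.06, and within cells with neither from -0.03 to 0.05. It ran from -0.03 to 0.15 with Apoe alone and from -0.07 to 0.23 with Cst7 alone, the highest value being that of the 268 cells of WT1. Cells of a mouse share a library and its depth, so these are descriptions and carry no p. In macrophages it was 0.12, 0.18 and 0.11 in 3 mice and -0.45 in the 51 cells of WT2.

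**Figure D4:**
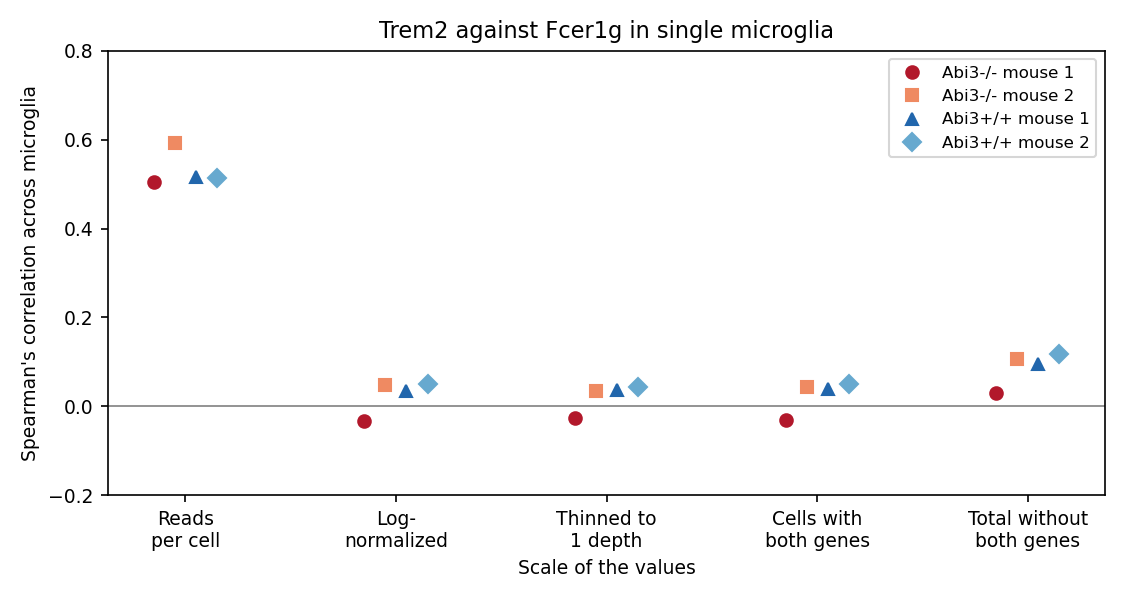
Spearman's correlation between Trem2 and Fcer1g across the microglia of each mouse, on 5 scales. In reads per cell the 4 mice lie between 0.50 and 0.59, and on log-normalized and thinned values between -0.03 and 0.05. With both genes left out of the total by which a cell is scaled, they lie between 0.03 and 0.12.

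Genes most like each member were ranked by the mean Spearman's correlation over the 4 mice in thinned microglia, among the other genes with a read in at least 20% of the microglia of every mouse, 106 in number. For Trem2 these were Cst7 (0.21), Ctsd (0.21), the lysozyme gene Lyz2 (0.21), Apoe (0.16) and the lysosomal tetraspanin Cd63 (0.15). The correlation was above 0 in each mouse for these genes, and ranged from 0.09 to 0.29. Cst7 and Apoe had defined the classes above, so their place here is the same relation seen in another way. The most negative values were those of the immediate early gene Egr1 (-0.22) and of Selplg (-0.20), which encodes a selectin ligand. For Fcer1g they were Ly86 (0.09), a partner of the toll-like receptor homologue RP105, the complement gene C1qb (0.07), Lyz2 (0.07), the ferritin chain Fth1 (0.06) and the annexin Anxa5 (0.06). Fcer1g stood at rank 15 of 106 for Trem2, and Trem2 at rank 16 of 106 for Fcer1g, with a mean correlation of 0.02. Lyz2 was in both sets of 5 genes, while Ctsd stood at rank 2 for Trem2 and at rank 104 for Fcer1g (-0.07). The genes of a thinned cell share a fixed total, and Ctsd took 19.1% to 39.98% of the panel reads, depending on class and mouse. The part of this fixed total in the correlations with Ctsd was not tested.

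**Figure D5:**
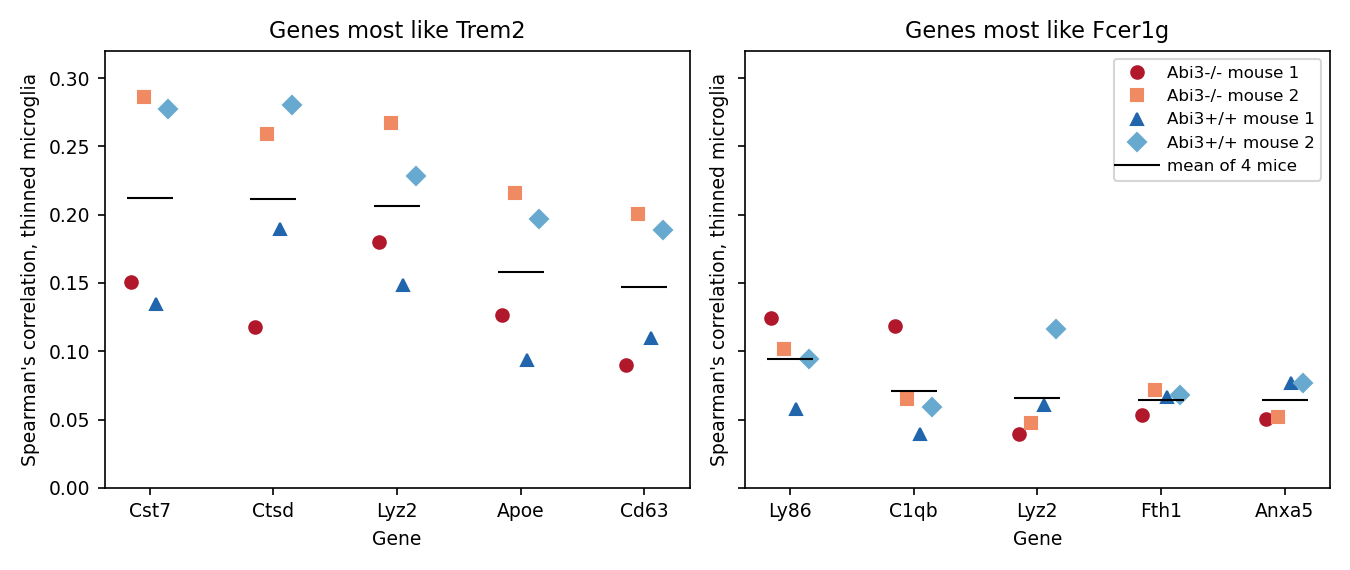
Spearman's correlation of the 5 genes most like Trem2 (left) and Fcer1g (right) across microglia thinned to 10000 reads; points are mice and bars their means. The means run from 0.15 to 0.21 for Trem2 and from 0.06 to 0.09 for Fcer1g.

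Genotype was compared over mice. The share of the panel taken by Trem2 was lower in KO1 and KO2 than in WT1 and WT2 over all microglia, with a difference of -8.46% of the mean of the latter (49478 ± 2078 against 54052 ± 546 RPM, SD, n = 2 mice each). The exact two-sided permutation p was 0.33, the smallest that 2 against 2 mice allow. Of 318 genes, 111 (34.9%) had a level that was lower in this way without overlap. Within the classes the Trem2 difference was -15.7% in cells with both genes, -6.65% with Apoe alone, -13.01% with Cst7 alone and -11.5% with neither, again with no overlap between genotypes and an exact permutation p of 0.33 each. The share of genes that were lower without overlap was 13.5%, 21.7%, 17% and 27.7% in these classes. The genotypes mixed different clusters, in all microglia and in each class. A cluster led by Qpct, Tnfsf8 and Pdcd1 held 34.4% and 31.4% of the microglia of KO1 and KO2 and 5.93% and 4.91% of those of WT1 and WT2. A cluster led by Fosb, Egr1 and Dusp1 held 2.83% and 3.57% against 29.6% and 23.4%. In cells with neither gene the former held 31.2% and 36.0% against 3.06% and 2.93%, and in cells with both the Cst7-led cluster held 18.9% and 32.6% against 48.0% and 46.4%. Within the Qpct-led cluster the Trem2 level was 47234 and 43152 RPM in KO1 and KO2 and 49532 and 49402 in WT1 and WT2, and within the Fosb-led cluster it was 43888, 38723, 48028 and 46342 in the same order. The part of these clusters in the genotype differences was not tested. The 5 comparisons, of all microglia and of the classes, share the same 4 mice, and no adjustment was made since none could pass. In the MHC class II-led cluster the Trem2 difference was -12.8%, without overlap (exact permutation p = 0.33), beside 11.9% of genes that were lower without overlap. Fcer1g levels overlapped between genotypes in all microglia, in each of the 4 classes and in the MHC class II-led cluster. In macrophages the Fcer1g level was lower in KO1 and KO2 than in WT1 and WT2, with a difference of -17.7% and no overlap (exact permutation p = 0.33), beside 18.9% of genes, and the Trem2 level overlapped.

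With TMM and edgeR's quasi-likelihood test, neither gene passed the threshold between genotypes. In all microglia 0 of 320 genes (0%) were called, with 25 at an unadjusted p under 0.05 and 9 called by DESeq2. The interval of the log2 fold change of Trem2 between Abi3-/- and Abi3+/+ ran from -0.33 to 0.45, and that of Fcer1g from -0.27 to 0.56. The direction for Trem2 depended on the scaling, with a log2 fold change of 0.06 under TMM and -0.13 without it, where the median over all genes shifted by -0.19. Fcer1g also changed sign, to -0.05 without TMM. In cells with both Apoe and Cst7 reads the log2 fold change was -0.29 ± 0.18 for Trem2 (SE; adjusted p = 0.84, edgeR) and -0.17 ± 0.18 for Fcer1g (adjusted p = 0.97, edgeR), with 0 of 268 genes (0%) called, 12 at an unadjusted p under 0.05 and 3 called by DESeq2. In cells with neither, the log2 fold change was -0.07 ± 0.22 for Trem2 (adjusted p = 0.95) and 0.12 ± 0.18 for Fcer1g (adjusted p = 0.91), with 0 of 282 genes (0%) called, 29 at an unadjusted p under 0.05 and 12 called by DESeq2.

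Whether the difference between classes itself differed between genotypes was tested as an interaction. The log2 fold change of cells with both genes over cells with neither differed between Abi3-/- and Abi3+/+ mice by -0.21 for Trem2, with an interval of -0.73 to 0.31 (adjusted p = 0.77, edgeR). The difference was -0.27 for Fcer1g, with an interval of -0.73 to 0.18 (adjusted p = 0.63, edgeR). Both values depended on single mice, being -0.02 and -0.09 without KO1 and -0.41 and -0.47 without KO2, and for Fcer1g -0.42 without WT2. Without TMM they were -0.07 and -0.13. Of 302 genes, 0 (0%) were called, with 40 at an unadjusted p under 0.05 and 13 called by DESeq2. The share of all microglia with a read overlapped between genotypes for both genes, with an exact permutation p of 1 for Trem2 and 0.667 for Fcer1g. It did not overlap in cells with neither, where the share in Abi3-/- mice differed by -0.13 percentage points for Trem2 and by 0.53 for Fcer1g, or in cells with Cst7 alone, where Fcer1g was read in 0.59 points more (exact permutation p = 0.33 each). In cells with neither, 20.1% of 318 genes had a lower share and 18.6% a higher share without overlap, and in cells with Cst7 alone 9.75% had a lower and 17% a higher one. Both members were near 100% in every mouse, so the measure had little room to differ.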

How the data were processed

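The authors processed the reads of the 4 libraries by default settings of the BD Rhapsody pipeline for targeted panels and deposited whole-number counts of reads for every gene in every cell, adjusted by the pipeline's error correction (DBEC) and not normalized. The genome build in the submitters' notes is mm10. The pipeline version is not given in the sources used here. Total reads per library were 87117727 for KO1, 150756771 for KO2, 139841135 for WT1 and 133496510 for WT2.

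From these counts, cells within the limits on genes and reads were clustered in Seurat 5.3.0 (R 4.3.3) on log-normalized values (scale factor 10000), 10 principal components and resolution 0.8. No doublet caller was used. A cluster took the name of a type with at least 3 markers among its 10 leading genes by fold. Other clusters were microglia if at least 5 of the 9 microglia markers were read in most of their cells, a rule set after seeing the clusters. Reads were summed per mouse and class and tested with edgeR 4.0.16 (quasi-likelihood, filterByExpr, TMM, Benjamini-Hochberg, threshold 0.05), and DESeq2 1.42.0 and limma 3.58.1 were alternatives. Intervals of fold changes are 95% intervals from the same fit. Apoe and Cst7 were left out of tests between and within classes. For thinning, 10000 reads were drawn per cell, and 26, 288, 181 and 64 kept cells were too shallow. Genes were named by rule: Trem2, Fcer1g, the 5 genes most like each, and up to 4 genes with the largest change among those past the threshold in each list. Members and lists were chosen with earlier results of these data known. The replicates are mice, 2 per genotype. Some genes of the lists are counted but not reported here by name.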

Additional observations from a re-analysis of the deposited data

Results flagged for a closer look

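Reads of both genes were also present in the cells that the filter left out, which entered only the alternative without the cell filter. Of the 5674 cells in which under 40 genes had a read, with medians of 2358 to 2500 reads, 20% to 22.7% had a Trem2 read and 17.5% to 22.5% an Fcer1g read, depending on the mouse. Of the 1678 cells above the upper limit of reads, 87.6% to 98.0% had a Trem2 read and 98.6% to 100% an Fcer1g read. The share in kept T cells, at a median of 16781 reads, was 7.74% for Trem2 and 9.60% for Fcer1g.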

How the results depend on the processing

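Trem2 was called higher in cells with both Apoe and Cst7 reads under each of 18 alternatives, with log2 fold changes from 0.29 to 1.05. Fcer1g was positive under all 18, from 0.06 to 0.79, and lost its call without TMM (0.061) and with limma on mean log-normalized values (0.093, adjusted p = 0.13). Leaving out a mouse gave 0.77 to 1.05 for Trem2, 0.51 to 0.79 for Fcer1g and 105 to 134 called genes. Counting a gene only from 5 reads changed nothing, since the lowest counts above 0 in kept cells were 17, 9, 6 and 13 reads for Trem2, Fcer1g, Apoe and Cst7.

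Between genotypes neither gene was called under any of 17 alternatives in all microglia, 6 in cells with both genes, 6 in cells with neither and 7 of the interaction. In all microglia Trem2 changed sign without TMM (-0.132), with limma (-0.125), without the cell filter (-0.081), without TMM and Ctsd (-0.059) and without KO1 (-0.029), with -0.029 to 0.104 over the mice left out. Fcer1g changed sign without TMM (-0.049), and ran from 0.05 to 0.25 over the mice left out. In cells with both genes, leaving out a mouse gave -0.357 to -0.213 for Trem2 and -0.225 to -0.094 for Fcer1g. In cells with neither gene, leaving out a mouse gave -0.218 to 0.056 for Trem2, above 0 without KO2, and -0.028 to 0.245 for Fcer1g, below 0 without KO1. The number of called genes, 0 in the fits with edgeR reported above, was 9 with DESeq2 and 0 to 1 without a mouse in all microglia, 3 with DESeq2 and 0 to 2 without a mouse in cells with both genes, and 12 with DESeq2 and 0 to 5 without a mouse in cells with neither. For the interaction it was 2 without TMM, 13 with DESeq2 and 0 to 25 without a mouse. The count of 25 was without KO2. The cause was not tested. With the replicate block the genotype log2 fold changes were 0.06 for Trem2 and 0.15 for Fcer1g, with 0 called genes, and mice with the same number deviated together (r = 0.32 over 320 genes), but they share only a number. Without the mouse block 96 genes were called between classes. The mean Spearman's correlation of Trem2 with Fcer1g was 0.025 on log-normalized values and 0.087 with both genes left out of the total. Including the MHC class II-led cluster or leaving out the cell cycle-led clusters, added after seeing the data, changed no call of either gene.

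With 2 mice per genotype the interval for Trem2 in all microglia under TMM spans -0.33 to 0.45, which includes changes in either direction. A difference in transcripts per cell, in either direction, cannot be told from one in capture.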
